A study of Saccharomyces cerevisiae with 14 samples.

Results

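Wild-type yeast grown with added nicotinamide was compared with a strain that lacks PNC1, the gene of the enzyme that removes nicotinamide. The comparison rests on 4 of the 14 arrays of the series, chosen by their titles: 2 of wild type with 5 mM nicotinamide and 2 of pnc1Δ. Each array measured total RNA from 1 of a pair of duplicate Saccharomyces cerevisiae cultures in YPD, a rich medium, harvested in log phase and hybridised to an Affymetrix Yeast 2.0 array. The nicotinamide-treated cells had the wild-type genotype, MATa his3D200 leu2D1 met15D0 trp1D63 ura3-167. The pnc1Δ cells carried the same marker alleles and, in addition, a pnc1D::kanMX4 deletion, and received no nicotinamide. The 4 untreated wild-type arrays, titled in pairs ML1 and ML8, give the level of each gene without drug or deletion. The remaining arrays, of npt1Δ, bna1Δ and tna1Δ, entered the estimate of the spread. Each group is thus 1 strain, 1 dose and 1 growth stage, and an error from duplicate cultures says nothing about other strains or doses.

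Pnc1 is the nicotinamidase of yeast, which converts nicotinamide to nicotinic acid, the entry point of NAD+ salvage. Nicotinamide is also the product, and an inhibitor, of the sirtuins, NAD+-dependent deacetylases. Among these, Sir2 silences the cryptic mating-type loci and the regions next to telomeres, and Hst1, with Sum1 and Rfm1, represses the BNA genes of de novo NAD+ synthesis and many genes of mid-sporulation. When silencing of the cryptic loci is lost, a and alpha regulators are made in the same cell, and the genes of the haploid mating programme are repressed. Cells that lack Pnc1 cannot use this route to dispose of nicotinamide, and the comparison sets that state beside an outside supply of the same compound.

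The values are log2 signals as deposited, made by the authors with GCRMA, so a difference of 1 is a 2-fold difference. Median signals lay between 9.75 and 9.84 on the 14 arrays. A probe set was taken as above background where it exceeded the 95th percentile of 1746 probe sets whose annotated gene the reference lacks, a limit of 2.22 to 2.26 on the log2 scale. The replicate arrays correlated at 0.9955 with nicotinamide and at 0.9979 in pnc1Δ across 5498 probe sets. In pnc1Δ and in wild type all 7 a-specific genes, markers of the labelled MATa type, were above 10. Of the 4 alpha-specific genes, MF(ALPHA)1, an alpha pheromone gene, was below the limit. STE3 read 2.46 and 2.49 in pnc1Δ and 2.46 to 3.35 in wild type, and MF(ALPHA)2 3.53 and 3.72 in pnc1Δ and 3.64 to 3.79 in wild type, above the limit. SAG1, the alpha-agglutinin gene, went against the label, with 9.35 and 9.33 in pnc1Δ and 8.94 to 9.22 in wild type. HIS3 and MET17, the gene at the met15 locus, were below the limit on every array of the 3 groups, whereas LEU2 and URA3, which also carry marker alleles, read at least 14.12 and 11.57, and TRP1 was not measured.

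Nicotinamide-treated cells and pnc1Δ cells differed in 849 of 5498 probe sets (15.4%) at an adjusted p under 0.05 in limma's moderated test, fitted on all arrays. Of these, 515 were higher with nicotinamide (9.37% of all) and 334 were lower (6.07%). At least 2-fold differences made up 288 of the calls, 211 higher and 77 lower. The median difference over all probe sets was -0.0038. The direction of the calls depended on the scaling. In the values as deposited 60.7% of the calls were higher with nicotinamide. After quantile normalization, a second such step over the 5498 tested probe sets alone, the share was 49.6%, and after centring on the array median 67.8%. Probe sets above the limit made up 98.5% and 98.4% with nicotinamide, against 97.6% and 97.9% in pnc1Δ. The gene lists of lowest mean signal in pnc1Δ had lower median differences after quantile normalization. The medians went from 0.05 to -0.12 in early meiotic, 2.17 to 1.48 in middle sporulation and 0.13 to 0.01 in alpha-specific genes. Folds of dim genes thus depend on the scaling, and the effect over all dim genes was not tested.

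**Figure D1:**
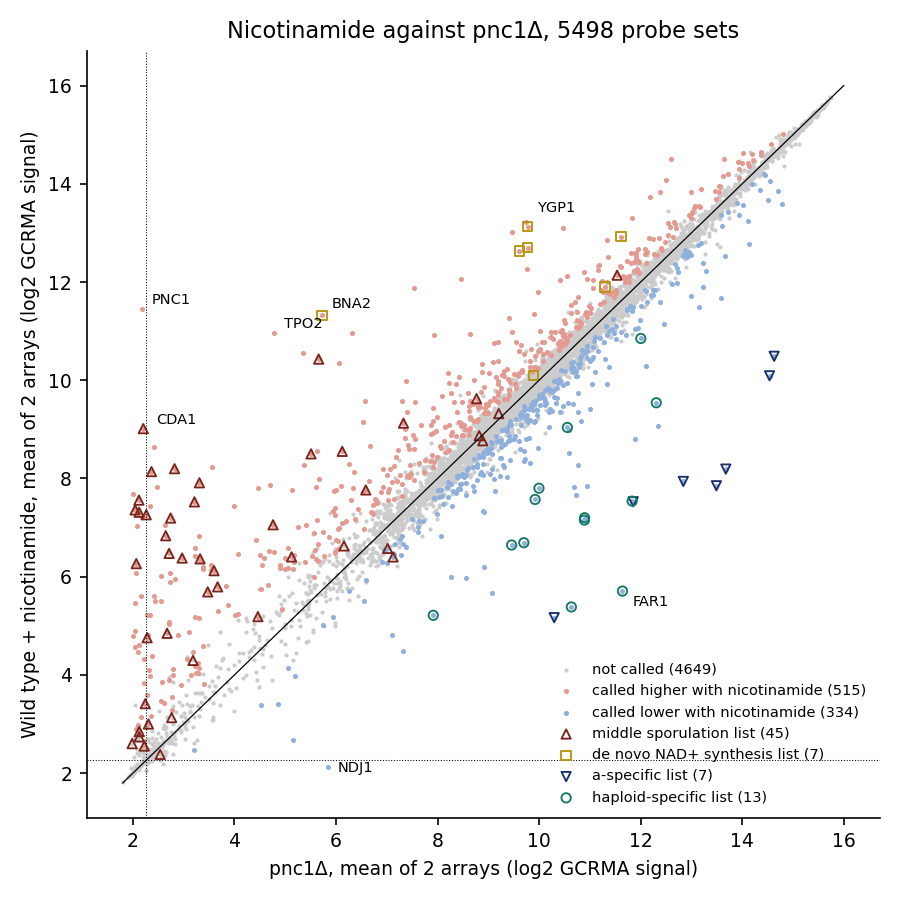
Mean log2 signal of the 2 nicotinamide arrays (vertical axis) against that of the 2 pnc1Δ arrays (horizontal axis) for 5498 probe sets, each a point, coloured by its call; open symbols mark 4 gene lists, the solid line equality and the dotted lines the highest background limit. PNC1 and most of the 45 middle sporulation genes lie far above the line at the left, and the 7 a-specific and 13 haploid-specific genes lie below it at the right.

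Most of these differences lay on the nicotinamide side of untreated cells. The mean of the 4 wild-type arrays was nearer to pnc1Δ than to nicotinamide in 386 of the 515 higher and in 267 of the 334 lower probe sets. Among those at least 2-fold apart this held for 188 of 211 and 71 of 77. Against wild type, which both comparisons share, 874 probe sets (15.9%) passed the test with nicotinamide and 123 (2.24%) in pnc1Δ. With a wild-type pair for each condition and no array in common, the changes in nicotinamide and in pnc1Δ correlated across genes at r = 0.006 (rho = 0.027) with the ML1 pair for nicotinamide and at r = -0.06 (rho = -0.14) with the pairs exchanged. These are descriptions over 5498 probe sets, which are not independent replicates.

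PNC1 itself gave the largest difference. Its probe set read 11.34 and 11.58 with nicotinamide, against 2.17 and 2.18 in pnc1Δ. Both pnc1Δ arrays were below the background limit, as the label requires, and the gene was at least 602-fold higher with nicotinamide (difference 9.28 ± 0.19, SE, adjusted p = 2.08e-10). Untreated wild type, at 11.67 to 12.22, was slightly above the nicotinamide arrays. The measured neighbours of the deletion did not pass the test: OCH1, a mannosyltransferase gene, differed by 0.03 ± 0.13 and MIG1, a glucose repressor gene, by -0.26 ± 0.18.

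De novo NAD+ synthesis, which builds NAD+ from tryptophan through the BNA enzymes, was higher with nicotinamide in 6 of its 7 genes (85.7%, against 9.37% of all probe sets). The median difference of the list was 2.92, and none of the 7 was lower. BNA2, the dioxygenase that opens the tryptophan ring, had 11.49 and 11.15 with nicotinamide, against 5.77 and 5.68 in pnc1Δ. This was a 48.4-fold difference (5.60 ± 0.15, adjusted p = 1.82e-09), with untreated wild type between 5.21 and 5.56. The kynurenine 3-monooxygenase gene BNA4 had 13.10 and 13.16 with nicotinamide, against 9.78 and 9.77 in pnc1Δ (10.2-fold). The kynureninase gene BNA5 had 12.61 and 12.66, against 9.68 and 9.54 in pnc1Δ (8.13-fold). BNA1, the 3-hydroxyanthranilate dioxygenase, had 12.85 and 12.55, against 9.83 and 9.73 in pnc1Δ (7.58-fold). The arrays of the 2 conditions were thus far apart in each of the 4 genes, and their standard errors were 0.10 to 0.17.

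The last step of the route showed a smaller difference. BNA6, the quinolinate phosphoribosyltransferase, read 12.93 and 12.92 with nicotinamide, against 11.63 and 11.59 in pnc1Δ (2.49-fold, adjusted p = 4.59e-06). BNA3, a kynurenine aminotransferase gene, differed by 0.60 ± 0.09, and the formylkynurenine formamidase gene BNA7 by 0.20 ± 0.08, which did not pass. In BNA5 and BNA6 the pnc1Δ arrays also lay below wild type, whose arrays spanned 10.23 to 10.47 and 11.82 to 12.12. Set against wild type, 6 of the 7 genes were higher with nicotinamide and 2 were lower in pnc1Δ (28.6%, against 1.42% of all probe sets).

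Among 15 genes of NAD+ salvage and vitamin uptake, 5 were higher with nicotinamide (33.3%, against 9.37% of all) and none was lower, with a median of 0.15. PNC1 is among the 5 because it is deleted in the other strain. The rest were the importers TNA1 and NRT1 and, with smaller differences, POF1 and FUN26. TNA1, the nicotinic acid permease, had 14.50 and 14.52 with nicotinamide, against 12.61 and 12.59 in pnc1Δ (3.75-fold, adjusted p = 9.73e-07). NRT1, a nicotinamide riboside transporter, had 10.09 and 10.20, against 8.25 and 8.15 in pnc1Δ (3.84-fold). In both, the separation of the groups far exceeded the gap between replicates. The call of FUN26, a nucleoside transporter gene (0.36 ± 0.08), was lost in 4 alternatives, and the riboside kinase gene NRK1 differed by -0.46 ± 0.19 without passing the test (adjusted p = 0.139, and 0.0473 when only the groups compared were fitted).

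The transcripts of the sirtuins and their partners showed no called difference in 12 genes, with a median of -0.05. Over all probe sets 9.37% were called higher and 6.07% lower, so few calls would fall in 12 genes at those shares. HST1 had 10.78 on both nicotinamide arrays, against 11.00 and 10.88 in pnc1Δ, and SUM1 had 9.91 and 9.97, against 9.96 and 10.06. SIR2 read 9.65 and 9.69 with nicotinamide, against 9.11 and 8.67 in pnc1Δ, but its wild-type arrays spanned 8.65 to 10.36, and the difference of 0.78 ± 0.52 did not pass (adjusted p = 0.395). The ML1 pair read 8.96 and 8.65 and the ML8 pair 10.35 and 10.36, and with the pairs fitted as separate groups SIR2 passed (adjusted p = 0.019). No other gene of the 12 was called there (8.33% higher, against 9.99% of all probe sets). Without ML1 array A 2 of the 12 were called higher (16.7%, against 12.5% of all). The nucleolar silencing gene NET1 differed by -0.03 ± 0.11. These are transcript levels and give no measure of enzyme activity.

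Among the functional lists, middle sporulation held the most rises. Of 45 measured middle sporulation genes, which are normally expressed when diploid cells form spores, 34 were higher with nicotinamide (75.6%, against 9.37% of all probe sets), 2 were lower (4.44%, against 6.07%) and 9 did not pass, with a median of 2.17. CDA1, which deacetylates chitin in the spore wall, had 8.81 and 9.22 with nicotinamide, against 2.23 and 2.18 in pnc1Δ. That difference, 6.81 ± 0.11 (112-fold, adjusted p = 2.87e-11), was the largest after PNC1. The CDA1 signal in pnc1Δ lay at the background limit on array A and below it on array B, so the size of the fold is uncertain. MAM1, which directs chromosome attachment in meiosis I, had 8.12 and 8.16 with nicotinamide, against 2.37 on both pnc1Δ arrays (54.7-fold). The septin gene SPR3 had 8.0 and 8.4, against 2.81 and 2.83 in pnc1Δ (41.6-fold). With nicotinamide these transcripts lay well inside the measured range, and in pnc1Δ they were near the limit.

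For several spore genes both pnc1Δ arrays were below the limit, so that only a lower bound can be given. SPR2, a putative spore wall gene, had 7.11 and 8.01 with nicotinamide and was at least 40.3-fold higher than in pnc1Δ. SMA1, needed for the membrane of the young spore, had 7.13 and 7.59 and was at least 35.1-fold higher. LDS2, a gene of the spore's lipid droplets, had 7.33 and 7.29 and was at least 34.0-fold higher. Their untreated wild-type arrays lay at 2.04 to 2.26, close to those of pnc1Δ. In all, 21 probe sets called higher had both pnc1Δ arrays below the limit.

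Other members of the list had a measurable level in all groups. SPO75, required for spore formation, had 10.22 and 10.64 with nicotinamide, against 5.77 and 5.55 in pnc1Δ (27.3-fold). GSC2, a glucan synthase gene, had 12.15 and 12.13, against 11.56 and 11.51 in pnc1Δ, and wild type was lower than both at 11.00 to 11.13. SPO71 went the other way, with 6.44 and 6.37 with nicotinamide, against 7.16 and 7.10 in pnc1Δ (-0.72 ± 0.06). The second fall was SPO16 (-0.44 ± 0.12), a gene of meiotic recombination, whose call was lost on leaving out any of the 4 arrays. After quantile normalization 27 genes of the list were higher (60%, against 8.4% of all under that scaling) and 3 lower (6.67%, against 8.55%). The median was then 1.48.

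Early meiotic genes gave few calls. Of 23 measured, 3 were higher with nicotinamide (13%, against 9.37% of all probe sets) and 1 was lower (4.35%, against 6.07%), with a median of 0.05. These shares are near those of all probe sets. After quantile normalization none was higher and 7 were lower (30.4%, against 8.55% of all under that scaling). SPO11, which makes the double-strand breaks of meiosis, had 3.93 and 4.05 with nicotinamide, against 5.25 and 5.15 in pnc1Δ (-1.21 ± 0.15, adjusted p = 0.000272). NDJ1, a gene of telomere clustering in meiosis that is not on the list, had 2.09 and 2.16 with nicotinamide, against 5.75 and 5.92 in pnc1Δ. Both nicotinamide arrays were below the limit, and NDJ1 was at least 12.1-fold lower. The rises of MSH4, REC104 and DMC1 (1.26, 0.93 and 0.42) each lost their call without pnc1Δ array A, as did DMC1 without pnc1Δ array B, MSH4 and DMC1 without nicotinamide array A, and MSH4 and REC104 without nicotinamide array B. DMC1 reversed to -0.61 after quantile normalization. Without pnc1Δ array A the median of the list was 0.01.

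Of 11 regulators of entry into meiosis, 1 was higher and 1 was lower (9.09% each), close to the 9.37% and 6.07% of all probe sets. IME4, an RNA methyltransferase gene, had 5.32 and 5.91 with nicotinamide, against 2.39 and 2.43 in pnc1Δ (9.23-fold, adjusted p = 0.000121). MUM2, a gene of the same methyltransferase complex, differed by -0.71 ± 0.16, and its call was lost without pnc1Δ array A, pnc1Δ array B or nicotinamide array B. The master regulator gene IME1 read 4.03 and 5.17 with nicotinamide, against 3.25 and 3.69 in pnc1Δ, and did not pass (adjusted p = 0.1). It passed with the replicate letter as a block (adjusted p = 0.0171) and without nicotinamide array A (1.70, adjusted p = 0.0288). NDT80, the activator of mid-sporulation genes, had 6.78 and 6.79, against 6.20 and 6.32, and did not pass either (adjusted p = 0.134), with a 95% interval of 0.06 to 0.98 for the difference. When only the groups compared were fitted, NDT80 passed (0.52, adjusted p = 0.0277). Wild type lay below both conditions at 5.45 to 6.06. Against it NDT80 passed with nicotinamide (1.03, adjusted p = 0.00257) and not in pnc1Δ (0.51, adjusted p = 0.197).

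**Figure D2:**
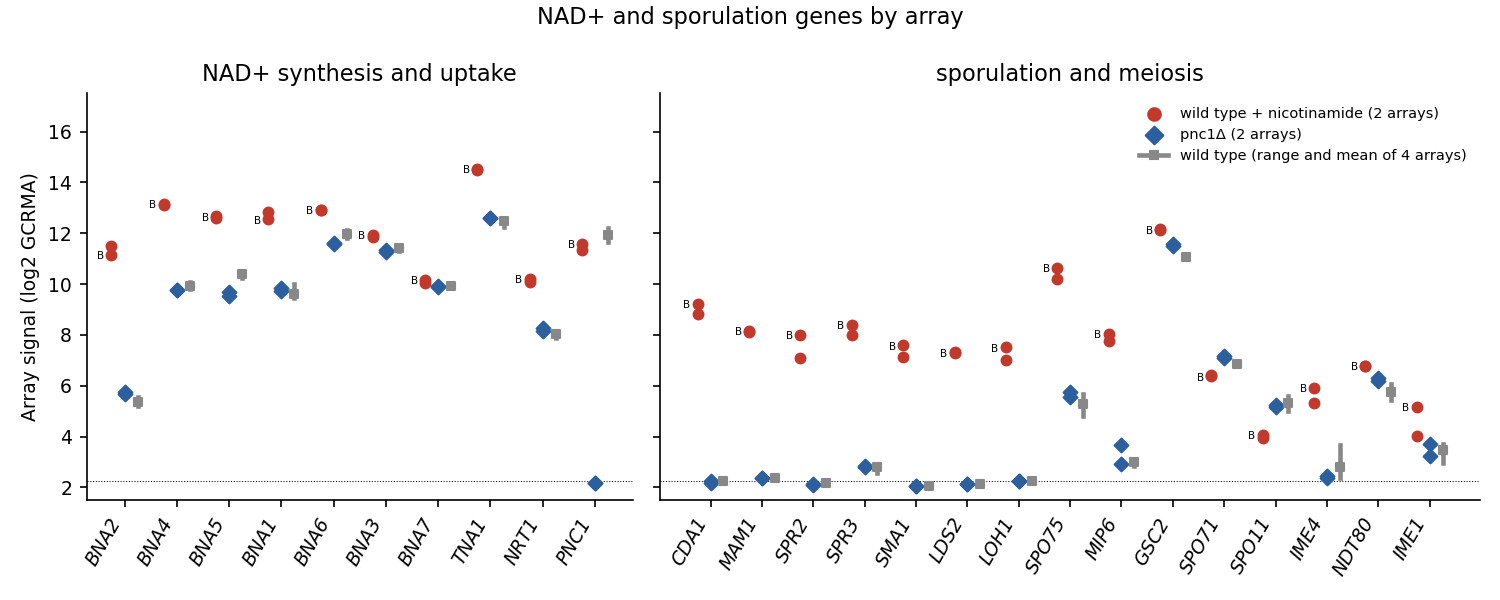
Log2 GCRMA signal (vertical axis) of NAD+ synthesis and uptake genes (left) and of sporulation and meiosis genes (right): circles are the 2 nicotinamide arrays (B marked), diamonds the 2 pnc1Δ arrays, grey bars the range and mean of 4 wild-type arrays, and the dotted line the highest background limit. In BNA2, CDA1 and MAM1 the pnc1Δ diamonds lie by the wild-type bars, while the circles lie above 8, and in SPO11 and SPO71 the circles lie below the diamonds.

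Of the 15 largest falls, 13 were genes of mating. All 7 measured a-specific genes, expressed in MATa cells, were lower with nicotinamide (median -4.90), as were all 13 haploid-specific genes (median -2.81), against 6.07% of all probe sets. FAR1, which arrests the cell cycle on pheromone, had 7.23 and 4.18 with nicotinamide, against 11.66 and 11.62 in pnc1Δ (-5.94 ± 0.72, adjusted p = 0.000242). AGA2, the binding subunit of a-agglutinin, had 9.25 and 6.46, against 13.57 and 13.41 in pnc1Δ (-5.64 ± 0.63). The a-factor gene MFA1 had 9.33 and 7.05, against 13.71 and 13.64 in pnc1Δ (-5.49 ± 0.51). The pnc1Δ arrays lay with wild type in these genes, and the nicotinamide arrays lay below both. An array of a whole culture cannot tell fewer expressing cells from less RNA in each cell.

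The nicotinamide cultures differed from each other in the depth of this fall. All 20 genes of both lists were lower on array B than on array A, 16 of them by more than 1, with a median gap of -1.58. Over all probe sets the median gap was 0.003, 48 were more than 1 apart, and 40 of these were lower on array B. The pnc1Δ arrays were at most 0.33 apart in the 20 genes. The errors given for these genes pool the spread of all groups and do not reflect the wider gap of the nicotinamide arrays. FUS3, the mitogen-activated kinase of the mating pathway, had 6.91 and 3.86 with nicotinamide, against 10.66 and 10.61 in pnc1Δ, and the pheromone receptor gene STE2 had 11.72 and 9.26, against 14.62 and 14.64. Fitted on the 4 arrays of the 2 conditions alone, 4 of the 7 a-specific and 11 of the 13 haploid-specific genes passed (57.1% and 84.6%, against 3.95% of all probe sets called lower). The direction was the same on every array, and without array B the medians were -3.62 and -2.28.

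Members with close replicates showed the fall as well. AXL1, a protease that matures a-factor, had 7.69 and 7.46 with nicotinamide, against 9.88 and 9.96 in pnc1Δ (5.1-fold lower, adjusted p = 2.51e-07). STE12, the transcription factor of the pheromone response, had 9.12 and 8.96, against 10.61 and 10.51 in pnc1Δ (2.86-fold lower). AMN1, an antagonist of mitotic exit, had 10.85 on both arrays, against 12.13 and 11.88 in pnc1Δ. Other haploid-specific genes lay between these and FAR1: GPA1, STE4 and STE18, the subunits of the pheromone G protein, differed by -4.29, -2.77 and -2.70, the endonuclease gene HO by -3.74, and NEJ1, a DNA end-joining factor, by -2.81. RME1, the haploid repressor of meiosis, had 8.33 and 7.27 with nicotinamide, against 9.95 and 10.04 in pnc1Δ.

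Ste12 target genes of the pheromone response followed in part. Of 20 measured, 12 were lower with nicotinamide (60%, against 6.07% of all probe sets), none was higher and 8 did not pass, with a median of -0.92. AGA1, the anchor subunit of a-agglutinin, had 9.45 and 8.71 with nicotinamide, against 12.34 on both pnc1Δ arrays (-3.26 ± 0.19, adjusted p = 1.04e-06). FUS1, a cell fusion gene, had 8.16 and 7.50, against 10.73 and 10.64 in pnc1Δ (7.23-fold lower). PRM5, a pheromone-regulated membrane protein gene, had 10.36 and 10.22, against 12.14 and 12.07.

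Of 4 alpha-specific genes, 1 rose (25.0%, against 9.37% of all). STE3, the receptor for a-factor, had 7.71 and 7.96 with nicotinamide, against 2.46 and 2.49 in pnc1Δ (41.0-fold, adjusted p = 1.11e-07). The alpha-pheromone genes MF(ALPHA)1 and MF(ALPHA)2 differed by 0.11 ± 0.08 and 0.14 ± 0.10, and the alpha-agglutinin gene SAG1 by -0.03 ± 0.11, none of which passed. After quantile normalization MF(ALPHA)2 was called lower (-0.80, adjusted p = 0.000139). None of the 3 measured probe sets of the silent mating loci passed. HMRA1 had 10.15 and 10.36 with nicotinamide, against 9.91 and 10.11 in pnc1Δ, and cannot be told from the identical gene at MATa. HMRA2, a shared design, differed by 0.39 ± 0.16. It read 9.46 to 9.88 in untreated MATa wild type too, so its signal cannot be assigned to the silent copy either. The probe set of HMLALPHA1 lay at 2.02 on all 4 arrays, below the limit, and its response in alpha cells was not tested. HMLALPHA2 was not measured. These probe sets thus cannot decide whether the silent copies were expressed.

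**Figure D3:**
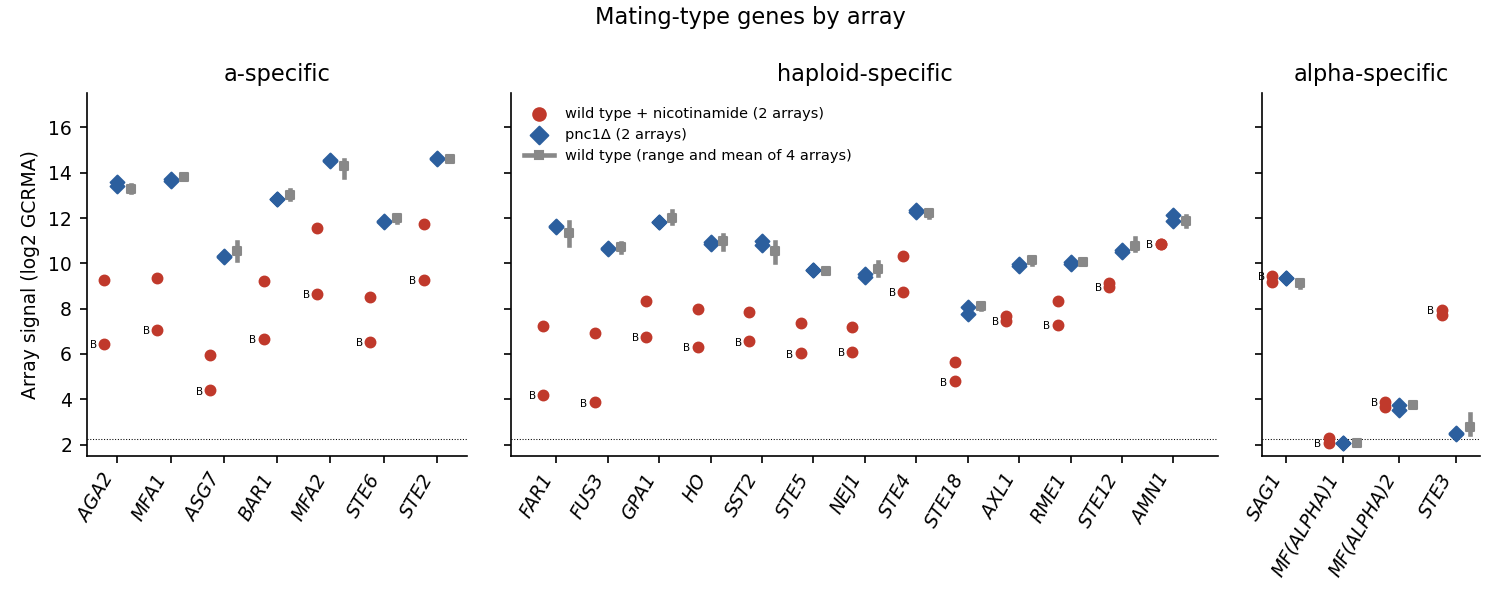
Log2 GCRMA signal (vertical axis) of all measured a-specific (7), haploid-specific (13) and alpha-specific (4) genes: circles are the 2 nicotinamide arrays (B marked), diamonds the 2 pnc1Δ arrays, grey bars the range and mean of 4 wild-type arrays, and the dotted line the highest background limit. The pnc1Δ diamonds lie at the wild-type bars, the circles of all 20 a-specific and haploid-specific genes lie below them, and STE3 is the alpha-specific gene whose circles lie far above.

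Genes of daughter-cell separation, which dissolve the septum after division, were higher with nicotinamide in 8 of 11 (72.7%, against 9.37% of all probe sets) and lower in 1 (9.09%, against 6.07%), with a median of 1.64. DSE1, a daughter-specific gene, had 7.08 and 7.03 with nicotinamide, against 2.71 and 2.55 in pnc1Δ (21.5-fold, adjusted p = 4.66e-09). The glucanase gene SCW11 had 10.75 and 11.08, against 8.01 and 7.83 in pnc1Δ (7.95-fold), and the endochitinase gene CTS1 had 12.25 and 12.29, against 9.76 on both pnc1Δ arrays (5.7-fold). The single fall was AMN1, which is on the haploid-specific list too. Among 13 G1 and B-type cyclin genes, CLB1 was 1.11 ± 0.11 lower and CLB5 0.35 ± 0.06 higher with nicotinamide. PCL1, PCL2 and CLB3 were also lower, which made 4 falls in the list (30.8%, against 6.07% of all). The calls of PCL2 and CLB3 were lost on leaving out any of the 4 arrays, and that of PCL1 without array B of either condition.

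Sir2 also acts next to telomeres. Of 235 measured genes among the 10 outermost of each end, 74 were higher with nicotinamide (31.5%, against 9.37% of all probe sets). A further 8 were lower (3.4%, against 6.07% of all), and the median was 0.21. Without 53 probe sets whose design is shared between near-identical genes, 55 of 182 were higher (30.2%) and 7 lower (3.85%). The permease gene SEO1, picked with its values known, had 8.28 and 8.17 with nicotinamide, against 3.45 and 3.65 in pnc1Δ (25.5-fold). FIT1, a cell wall mannoprotein that binds siderophores, had 11.94 and 11.80, against 7.60 and 7.46 in pnc1Δ (20.3-fold). In COS genes, a subtelomeric membrane protein family, 5 of 9 were higher (55.6%), led by COS8 (1.73 ± 0.16), and in the seripauperin PAU family 8 of 13 (61.5%). Leaving out 1 of the 4 arrays cost the PAU list some of its calls, with medians of 0.81 to 0.86. As 10 of the 13 PAU probe sets are shared designs, single PAU genes cannot be told apart.

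Beyond the lists, the largest rises included genes without a well-described product. YFL012W had 8.50 and 8.78 with nicotinamide, against 2.41 on both pnc1Δ arrays (75.0-fold). YMR244W had 7.90 and 7.47 and was at least 44.0-fold higher, and YGL138C had 6.58 and 7.85 and was at least 31.7-fold higher. GIP1, a phosphatase subunit of spore wall assembly, had 10.44 and 10.68, against 5.35 and 5.34 in pnc1Δ (37.2-fold), and HXT14, a member of the hexose transporter family, had 7.39 and 7.51, against 2.33 on both pnc1Δ arrays (34.8-fold). YNL146C-A fell with the mating genes, with 6.27 and 5.04 with nicotinamide, against 9.17 and 8.98 in pnc1Δ. None of these 6 was called against wild type in pnc1Δ, where only 2.24% of all probe sets were called.

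Nutrient regulons contributed further rises. Phosphate starvation genes were higher with nicotinamide in 9 of 17 (52.9%, against 9.37% of all probe sets, median 0.42), and none was lower. PHM6, a phosphate-regulated gene, had 9.80 and 9.38 with nicotinamide, against 6.99 and 6.16 in pnc1Δ, and PHO89, a sodium-phosphate cotransporter gene, had 6.28 and 6.63, against 3.87 and 4.28. The phosphate transporter gene PHO84 had 13.28 and 12.91, against 11.12 and 9.81, with wild type between at 11.66 to 12.38. The pnc1Δ arrays lay far apart in PHO84, whose call (adjusted p = 0.0132) was lost without pnc1Δ array B and without either nicotinamide array, and 5 of the list passed without nicotinamide array B (29.4%, against 5.91% of all).

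Iron uptake genes were higher in 13 of 25 (52.0%, against 9.37% of all probe sets, median 0.43) and lower in none. Apart from FIT1, the mannoprotein gene FIT2 had 13.89 and 13.58 with nicotinamide, against 12.15 and 12.22 in pnc1Δ (2.93-fold), and the siderophore transporter gene ARN2 12.96 and 12.77, against 11.35 and 11.33 (2.87-fold). Against wild type 11 iron genes were higher with nicotinamide (44.0%, against 8.88% of all) and 3 were lower in pnc1Δ (12%, against 1.42%). In sulphur and methionine metabolism 12 of 29 genes were higher (41.4%, against 9.37% of all, median 0.43) and 1 was lower (3.45%, against 6.07%). MET3, the ATP sulphurylase, had 11.84 and 11.77 with nicotinamide, against 10.10 and 9.85 in pnc1Δ (3.55-fold, adjusted p = 0.000142), and the S-adenosylmethionine permease gene SAM3 was 1.36 ± 0.11 higher.

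Smaller groups showed a few large differences. In allantoin breakdown, 5 of 11 genes were higher (45.5%, against 9.37% of all probe sets) and 1 was lower (9.09%, against 6.07%). DAL1, the allantoinase, had 7.03 and 7.02 with nicotinamide and was at least 27.8-fold higher than in pnc1Δ, where both arrays were below the limit. Of 18 thiamine genes 5 were higher (27.8%) and 1 lower (5.56%, near the share of all), with a median of 0.09. THI4, an enzyme of thiazole synthesis, had 8.63 and 8.71, against 6.64 and 6.72 in pnc1Δ (3.97-fold), and THI13, whose probe set is shared with its copies, 8.25 and 8.86, against 5.79 and 5.47. In the DNA damage response 4 of 16 were higher (25.0%), among them HUG1, an inhibitor of ribonucleotide reductase, with 12.10 and 12.14, against 10.59 and 10.51 (2.97-fold), and 1 was lower (6.25%, near the share of all), DDR48 (-1.15 ± 0.14). Of 12 cell wall mannoproteins 3 were higher (25.0%, against 9.37% of all) and 2 lower (16.7%, against 6.07%), the anaerobic genes DAN1 (-1.37 ± 0.15) and DAN4 (-0.83 ± 0.15).

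**Figure D4:**
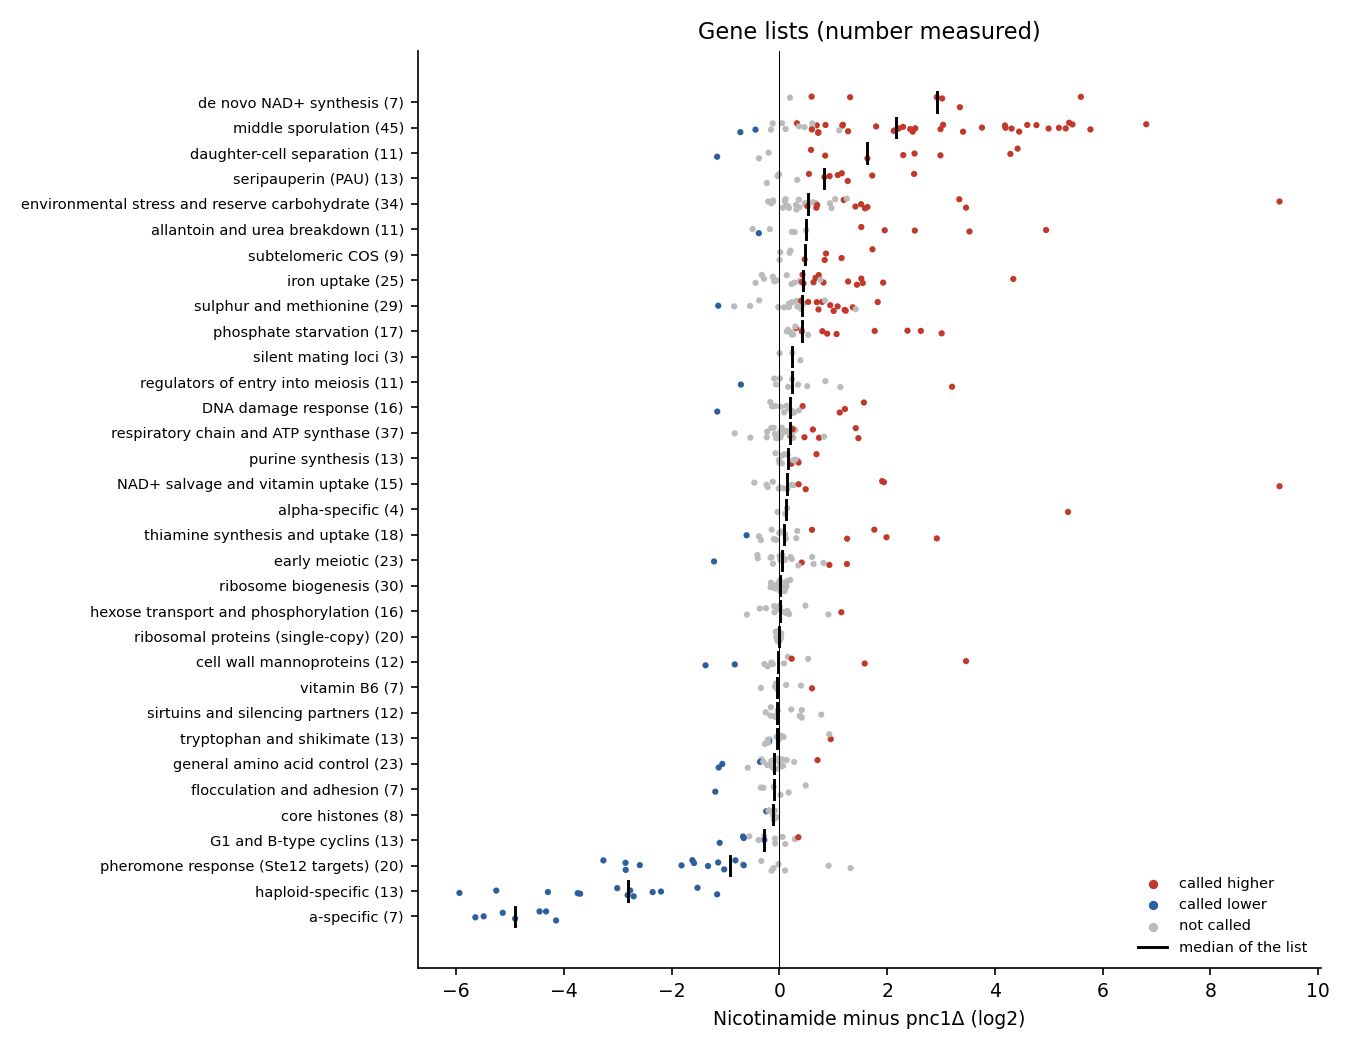
Difference between nicotinamide and pnc1Δ (horizontal axis, log2) for every measured member of 33 gene lists (vertical axis, number measured in brackets); each point is a gene, coloured by its call, with a small random vertical offset, and black bars are list medians. The medians run from -4.90 (a-specific) to 2.92 (de novo NAD+ synthesis), and ribosomal protein and ribosome biogenesis genes stay close to 0.

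Growth genes gave no call. Of 20 single-copy ribosomal protein genes and 30 ribosome biogenesis genes none passed, with medians of -0.01 and 0.01 and ranges of -0.07 to 0.04 and -0.16 to 0.20. RPS15 had 15.58 and 15.56 with nicotinamide, against 15.63 and 15.59 in pnc1Δ, and the nucleolar gene NOP1 had 14.65 and 14.64, against 14.74 and 14.79. Signals above 15 lie near the top of the measured range, and whether differences are compressed there was not tested. Of 16 hexose transport and phosphorylation genes 1 passed, the hexokinase gene HXK1 (1.15 ± 0.27), and of 13 tryptophan and shikimate genes 1 was higher (ARO9, 0.95 ± 0.22) and 1 lower (ARO4, -0.19 ± 0.05). The shares higher, 6.25% and 7.69%, were below the 9.37% of all probe sets, and the 7.69% lower was near their 6.07%. The calls of HXK1 and ARO4 were lost on leaving out any of the 4 arrays, and that of ARO9 without pnc1Δ array A or either nicotinamide array.

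A smaller set of differences lay on the pnc1Δ side, where the mutant departed from wild type. Its size depended on the control: pnc1Δ had 258 calls against the ML1 pair and 68 against the ML8 pair, beside 123 against both. The labels do not say which pair was grown beside pnc1Δ. Departures from wild type therefore cannot be told apart from differences between sets of cultures. TPO2, a polyamine exporter, had 10.70 and 11.22 with nicotinamide, against 4.26 and 5.30 in pnc1Δ (6.18 ± 0.66, 72.6-fold, adjusted p = 9.55e-05). Wild type lay between at 8.32 to 9.82, so that TPO2 was 1.69 above wild type with nicotinamide (adjusted p = 0.0772) and 4.49 below it in pnc1Δ (adjusted p = 0.00336). A brighter TPO2 probe set, of a shared design, gave a difference of 1.17 ± 0.32. The probe sets of TPO2 thus had the same direction and unlike sizes. RSB1, a transporter of sphingoid bases, also had wild type in the middle (9.03 to 10.20), with 11.91 and 12.23 with nicotinamide, against 8.46 and 8.44 in pnc1Δ (12.3-fold). Unlike TPO2, RSB1 passed the test against wild type with nicotinamide (2.37 ± 0.29, adjusted p = 0.000215) and not in pnc1Δ (-1.25 ± 0.29, adjusted p = 0.0534). All 4 wild-type arrays lay between the conditions in 137 of the 515 higher and 50 of the 334 lower probe sets.

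YGP1, a secreted glycoprotein gene, had 13.29 and 13.14 with nicotinamide, against 9.85 and 9.65 in pnc1Δ (11.1-fold, adjusted p = 2.29e-06), and its wild-type arrays, at 12.12 to 12.94, were nearer to nicotinamide. YRO2, a membrane protein gene, had 8.09 and 7.54, against 4.47 on both pnc1Δ arrays (10.1-fold), with wild type at 6.10 to 6.75. STP4, a zinc finger protein gene, had 11.18 and 11.37, against 9.30 and 9.52 in pnc1Δ, and CHA1, the serine deaminase, 8.19 and 7.80, against 5.35 and 5.99. STP4 and CHA1 were chosen after their values were seen. COX5B, a cytochrome oxidase subunit, had 9.16 and 9.04 with nicotinamide and 8.88 to 9.42 in wild type, against 7.64 and 7.72 in pnc1Δ.

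Several of these genes belong to the environmental stress and reserve carbohydrate list. Of its 34 members 11 were higher with nicotinamide (32.4%, against 9.37% of all probe sets) and none was lower, and the median was 0.52; PNC1 is a member, and 10 of the other 33 passed. Against wild type the median of these 33 was 0.01 with nicotinamide and -0.5 in pnc1Δ, and 6 of the 33 were lower in pnc1Δ (18.2%, against 1.42% of all). HSP12, a membrane-protecting stress protein, had 6.61 and 6.54 with nicotinamide, against 5.05 and 5.06 in pnc1Δ, and MSN4, a stress transcription factor, 7.39 and 7.40, against 6.11 and 5.86. Their wild-type arrays spanned 5.32 to 5.56 and 6.06 to 7.01. Neither passed the test against wild type in pnc1Δ (adjusted p = 0.166 and 0.272). HSP12 passed it with nicotinamide (1.14 above wild type, adjusted p = 0.0001), and MSN4 did not (0.76, adjusted p = 0.0806). The call of MSN4 was lost without array B of either condition. The count for all 34 was 6 without pnc1Δ array A (17.6%, against 5.95% of all) and 5 without nicotinamide array B (14.7%, against 5.91%). Of 37 respiratory genes 7 were higher (18.9%, against 9.37% of all). The count was 2 without pnc1Δ array A (5.41%, against 5.95% of all), 3 without nicotinamide array B (8.11%, against 5.91%) and 4 without pnc1Δ array B (10.8%, against 6.88%). The groups did not differ in harvest stage by label, and the part of growth stage in these differences was not tested.

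Against wild type, pnc1Δ was lower in 78 probe sets and higher in 45, and some of those 45 were lower with nicotinamide than in pnc1Δ. PCL5, the cyclin that promotes Gcn4 turnover, had 9.94 and 9.91 with nicotinamide, against 11.14 and 10.95 in pnc1Δ (-1.13 ± 0.13, adjusted p = 0.000127), with wild type at 9.73 to 10.03. The argininosuccinate lyase gene ARG4 had 12.26 and 12.21, against 13.35 and 13.24 in pnc1Δ, with wild type at 12.21 to 12.49. Both are on the general amino acid control list, of which 3 of 23 were lower (13%, against 6.07% of all) and 1 was higher (4.35%, against 9.37%). Against wild type 6 of the 23 were higher in pnc1Δ (26.1%, against 0.818% of all). The sulphate permease gene SUL1 differed by -1.13 ± 0.23, and its call was lost on leaving out array A of either condition.

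In some genes both conditions stood on the same side of wild type and close to each other. The pyridoxine genes SNZ1 and SNO1 had 9.74 and 9.73, and 5.06 and 5.13, with nicotinamide, against 9.71 and 9.84, and 4.89 and 4.50, in pnc1Δ. Their wild-type arrays reached at most 8.63 and 2.89. The differences between the conditions were -0.04 (95% interval -0.21 to 0.12) and 0.40 (-0.03 to 0.84). SRY1, a dehydratase of hydroxyaspartate, and RTC2, a vacuolar transporter, were also above wild type in both, and differed by 0.21 (-0.02 to 0.44) and -0.33 (-0.85 to 0.19). ALT1, the alanine transaminase, and ABP1, an actin-binding protein, were below wild type in both and differed by -0.04 (-0.20 to 0.13) and 0.15 (-0.07 to 0.37). These genes were named for standing on the same side of wild type in both conditions, and the same wild-type arrays enter both comparisons.

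**Figure D5:**
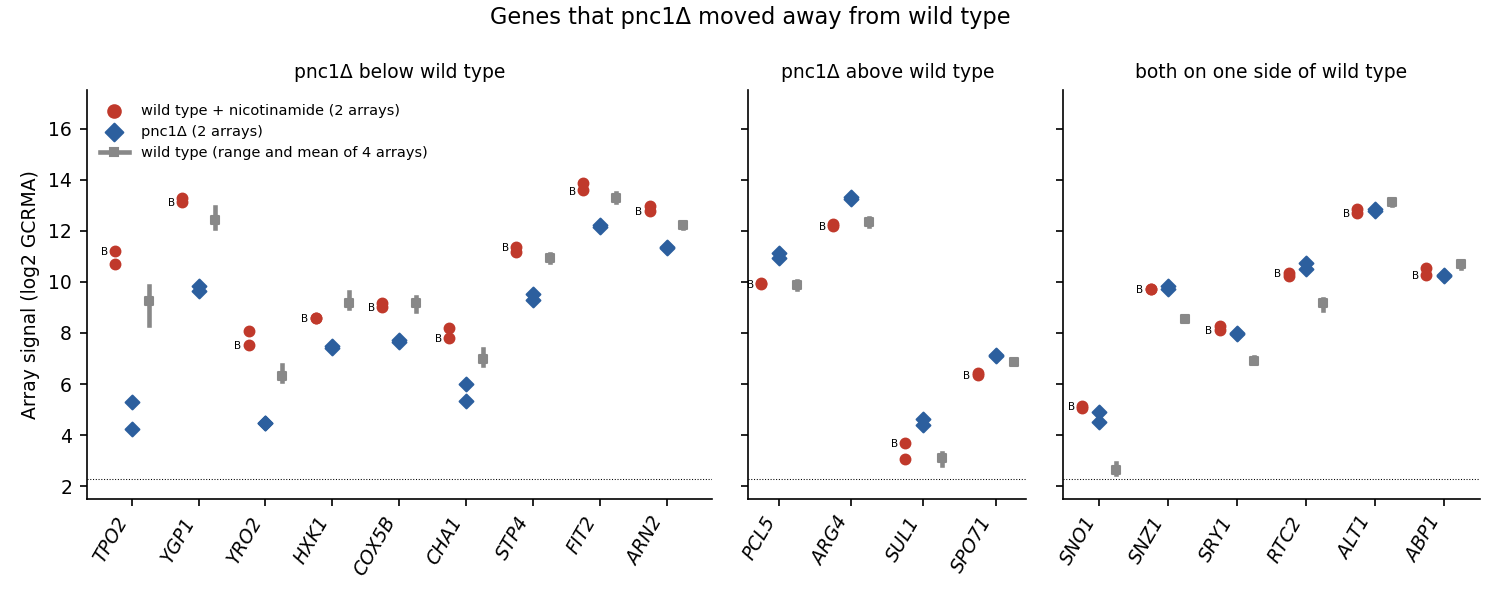
Log2 GCRMA signal (vertical axis) of 19 genes called against wild type in pnc1Δ, chosen after their values were seen: circles are the 2 nicotinamide arrays (B marked), diamonds the 2 pnc1Δ arrays, grey bars the range and mean of 4 wild-type arrays, and the dotted line the highest background limit. In TPO2, YGP1 and YRO2 the diamonds lie below wild type and the circles above its mean, in PCL5 and ARG4 the diamonds lie above, and in SNO1 and SNZ1 both conditions lie above the wild-type bars.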

How the data were processed

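For 10928 probe sets on 14 arrays, the deposited values are log2 signals that the authors computed with GCRMA, per the submitters' processing notes, which name no version. GCRMA corrects background, quantile normalizes and summarises probes, so levels of different genes are not comparable. The values were used as deposited. An array has no read depth, and 2 arrays per condition limit the precision.

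Probe sets were named through the platform annotation and the reference gene table of assembly R64: 5498 matched 1 S. cerevisiae gene each (5449 genes), 1746 had a gene that is not in that table, 1 had several, 213 were controls and 3470 had none given. Where a gene had several probe sets, the brightest stood for it in the lists. Of the 5498, 128 are shared designs.

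The test was limma 3.58.1 (R 4.3.3), fitted to all 14 arrays with the 4 wild-type arrays as 1 group (8 residual degrees of freedom, 2.01 prior, prior SD 0.101 on the log2 scale). P values were adjusted by Benjamini-Hochberg over the 5498, with calls at an adjusted p under 0.05. Errors are standard errors of the contrast, from a spread pooled over all groups. Bounds use each array's background limit. The step was also run on simulated data with equal spread in every group, which the nicotinamide arrays did not show in the mating genes. Replicate letters A and B recur across groups, with 2 pairs here.

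The comparison, the 33 lists and the tests were chosen with earlier results of these data known. Named genes are PNC1 and its measured neighbours, the 15 largest called rises and falls, up to 4 called members of each list, called probe sets with wild type between the groups, and up to 6 genes a direction that both conditions changed alike. Other list members and SEO1, STP4 and CHA1 were named after their values were seen. Promoter sequences were not analysed here. Figures were drawn with matplotlib 3.10.9.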

Additional observations from a re-analysis of the deposited data

Results flagged for a closer look

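Among 168 named probe sets, 10 had 1 of the 4 wild-type arrays standing apart from the other 3, by Dixon's criterion, which chance meets in about 5% of groups. On ML1 array A the wild-type value was lowest for NRT1 (7.86), RIP1 (9.17) and DSE2 (4.97) and highest for SCS22 (9.87). On ML1 array B it was highest for OCH1 (11.09) and HXK1 (9.62). On ML8 array A it was lowest for SPR3 (2.57) and IME1 (2.96). On ML8 array B it was lowest for BNA5 (10.23) and highest for STE5 (9.74). These arrays enter the difference between nicotinamide and pnc1Δ through the estimate of the spread.

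Outside the tested genes, 5217 probe sets had no single gene in the reference. Of these, 23 were called higher with nicotinamide than in pnc1Δ and 6 lower (0.556% in all), with differences between -3.92 and 4.77.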

How the results depend on the processing

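The 849 calls became 629 when only the groups compared were fitted (412 higher, 217 lower), 932 after quantile normalization and 851 after centring, and a 2-fold minimum kept 288 (211 and 77). In the other alternatives that kept all 4 arrays the count was 719 to 1195, the highest without ML1 array A, an alternative chosen after seeing the data. Leaving out 1 array gave 490 to 1195 calls (325 to 687 higher, 165 to 508 lower), with 520 without pnc1Δ array A, 567 without pnc1Δ array B, 709 without nicotinamide array A and 490 without nicotinamide array B. A condition left with 1 array is assumed to vary like the other groups. With the replicate letter as a block there were 1038 calls (624 higher, 414 lower). The letters share only a label, and same-letter deviations of the nicotinamide and pnc1Δ arrays correlated at 0.307.

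Against wild type, nicotinamide gave 533 calls with only the groups compared, 250 at 2-fold and 458 to 1156 on leaving out 1 array. For pnc1Δ, 123 calls became 29 with only the groups compared, 186 with the wild-type pairs separate, 240 with the replicate block, 258 with ML1 and 68 with ML8 as control, 19 at 2-fold and 22 to 202 on leaving out 1 array.

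Of 139 named probe sets called, 100 kept their call and direction in all 15 alternatives, 39 lost the call in at least 1, and 1 of these changed direction. That gene was DMC1 (-0.61 after quantile normalization, where it passed the test). Among genes not called, the sign turned after quantile normalization for SNO1 (-0.53), PUT1 (-0.39), MF(ALPHA)2 (-0.80) and HMLALPHA1 (-0.0095) and after centring for NET1 (0.0074), ALT1 (0.00096) and SAG1 (0.0036). Genes not called that passed in an alternative (adjusted p) were SIR2 with the wild-type pairs separate (0.019), IME1 with the replicate block (0.0171) and without nicotinamide array A (0.0288), NDT80 (0.0277) and NRK1 (0.0473) with only the groups compared, PUT1 with the replicate block (0.00565), HES1 without nicotinamide array A (0.0449) and MF(ALPHA)2 in the other direction after quantile normalization (0.000139). On leaving out 1 array the difference ranged from -0.11 to 0.17 for OCH1, -0.11 to 0.022 for SNZ1, -0.098 to 0.027 for ALT1 and -0.17 to 0.10 for SAG1. The causes were not tested.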
